A study of Rattus norvegicus with 10 samples.

Results

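Ion pump ATPases were followed in the supraoptic nucleus of the rat after water deprivation, by taking every gene whose symbol opened with Atp1a, Atp1b, Atp2a, Atp2b, Atp2c, Atp6v, Atp6ap, Atp7a, Atp7b, Atp8a, Atp8b, Atp9a, Atp9b, Atp10, Atp11, Atp12 or Atp13a. This rule found 65 of 32402 listed genes. Of these, 63 encode pump subunits or their accessory proteins, while Atp6v1fnb is a gene beside Atp6v1f and Atp8b5p is a pseudogene. The stomach proton pump genes Atp4a and Atp4b and the mitochondrial ATP synthase genes lie outside the rule.

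Polyadenylated RNA was sequenced from 10 samples of Wistar Han rats. The 5 dehydrated samples came from rats whose drinking water was removed for 72 h, and the 5 euhydrated samples came from rats that could drink freely. Each sample was punched from both supraoptic nuclei over 12 frozen sections with a corer of 1 mm, and water access was allotted by cage. The labels do not state that the samples are separate animals and the model held no term for cage. Each p-value therefore reflects only how far these 10 samples scatter, and some of that scatter may be technical.

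P-type ATPases pass a phosphate group through their own catalytic chain to move ions or lipids against a gradient: sodium and potassium (Atp1), calcium (Atp2), copper (Atp7), phospholipids from one membrane leaflet to the other (Atp8 to Atp11) and polyamines or other cargo (Atp13a). The V-ATPase (Atp6v) works by rotation instead, with a V1 head that splits ATP and a membrane-bound V0 ring that moves protons into lysosomes, endosomes, the Golgi and secretory vesicles. In magnocellular neurones, the vasopressin and oxytocin cells of this nucleus, sodium and calcium pumps restore the gradients spent in firing, and the acid inside granules serves peptide processing.

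Promoters of 3 members show 2 sets of letters that are often looked for in genes of this kind, so that the counts further down can be read beside real sequence. They are shown 5′ to 3′ from RefSeq on the assembly GRCr8, each from 250 bases before to 50 bases after the annotated start of the gene. Capitals mark TGACGT on the other strand (read as ACGTCA), the core of the cyclic AMP response element, in Atp1b3 (chr8:105821102-105821401, minus strand) and Atp6ap2 (chrX:12883621-12883920, minus strand). In Atp6v0d1 (chr19:50357199-50357498, minus strand) they mark TCACGTGA, the E-box inside the site bound by Tfeb, a regulator of lysosomal genes.
Atp1b3: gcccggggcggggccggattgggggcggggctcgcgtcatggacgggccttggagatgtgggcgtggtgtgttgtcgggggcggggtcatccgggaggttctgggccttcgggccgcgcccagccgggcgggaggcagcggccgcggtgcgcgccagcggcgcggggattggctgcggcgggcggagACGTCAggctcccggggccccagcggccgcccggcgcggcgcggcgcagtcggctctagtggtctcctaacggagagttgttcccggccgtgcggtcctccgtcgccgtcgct
Atp6ap2: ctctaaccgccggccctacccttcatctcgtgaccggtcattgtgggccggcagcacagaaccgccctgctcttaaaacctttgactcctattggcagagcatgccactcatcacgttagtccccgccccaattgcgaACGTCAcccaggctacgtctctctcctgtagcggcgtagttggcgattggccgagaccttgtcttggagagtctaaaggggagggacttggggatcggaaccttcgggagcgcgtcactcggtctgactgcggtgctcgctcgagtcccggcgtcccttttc
Atp6v0d1: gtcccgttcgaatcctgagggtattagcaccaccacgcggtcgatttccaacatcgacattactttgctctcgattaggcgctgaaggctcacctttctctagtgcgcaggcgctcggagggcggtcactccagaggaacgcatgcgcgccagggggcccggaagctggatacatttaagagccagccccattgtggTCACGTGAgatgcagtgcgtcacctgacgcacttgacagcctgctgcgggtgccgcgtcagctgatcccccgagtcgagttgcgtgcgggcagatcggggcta
The ACGTCA run opens 63 bases before the gene start in Atp1b3 and 112 bases before it in Atp6ap2, and TCACGTGA opens 53 bases before the start of Atp6v0d1.

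Of 65 members, 56 passed the filter on low counts and were tested with edgeR over all 15311 genes that passed it. Levels are CPM (counts scaled to a common library total) after scaling by TMM, a factor per library that evens out differences in composition, and a call means an adjusted p below 0.05. Against euhydrated samples, 7 members rose in dehydrated samples (among them Atp1b3, Atp6ap1, Atp6ap2, Atp6v0a1, Atp6v1f and Atp10a), 2 fell (Atp6v1e1 and Atp8a1) and 47 did not pass. The called share was 16.1% of the tested members, against 12.7% of all genes tested. It was 12.5% in the higher direction, against 7.79% of all genes, and 3.57% in the lower direction, against 4.90%. With library totals in place of TMM factors the split was 6 higher and 4 lower, and with erythrocyte markers as a covariate it was 3 higher and 1 lower.

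The groups did not overlap for 16.1% of the tested members, against 10.9% of all genes tested. Every dehydrated library lay above every euhydrated library for 7 of the 56 tested members, against 6.90% of all genes tested. All dehydrated libraries lay below the euhydrated ones for 2 of the 56, against 3.97% of all genes tested. The 7 included Atp1b3, Atp2a2, Atp6ap1, Atp6v0a1, Atp10d and Atp13a5, and the 2 were Atp6v1e1 and Atp8a1. Over the tested members 37 log2 fold changes, dehydrated over euhydrated, were positive and 19 negative, with a median of 0.045 beside -0.0058 over all genes tested. The changes were small, from -0.27 to 0.36 on the log2 scale.

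**Figure D1:**
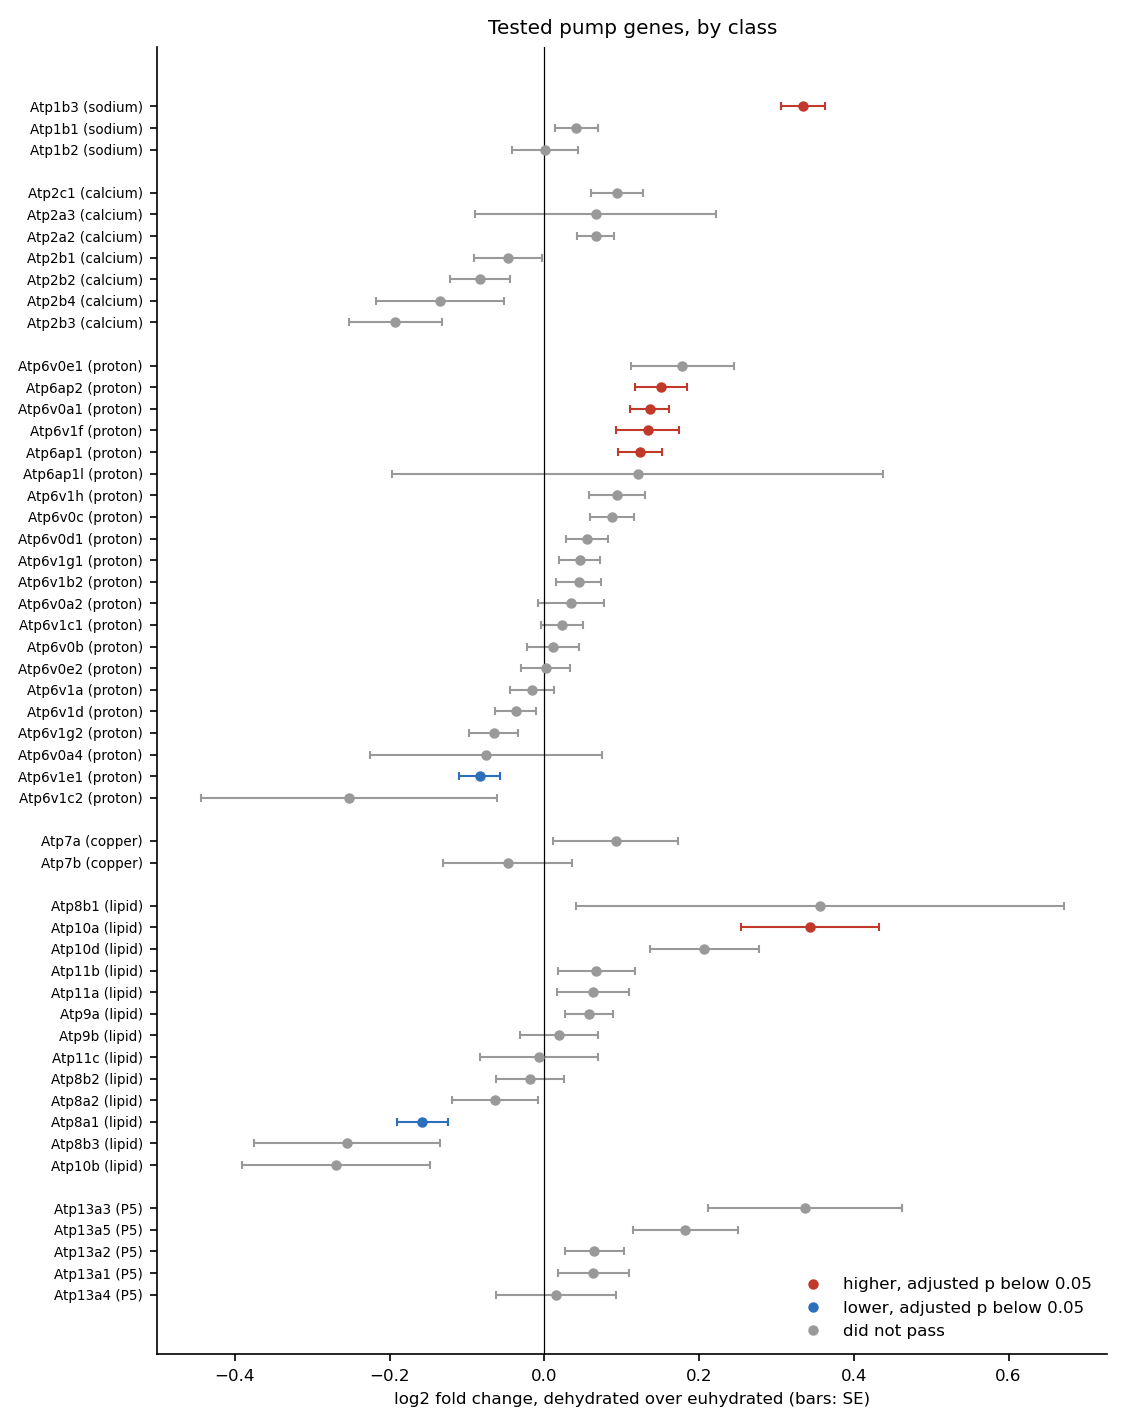
Log2 fold change (dehydrated over euhydrated, x axis) of 51 tested pump genes, grouped by class down the page, with SE bars and n = 5 libraries per group; red marks genes called higher, blue called lower and grey those that did not pass. Calls lie among the sodium, proton and lipid pumps, and 0 of 7 calcium pump genes passed.

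The libraries held 24268398 to 28491926 counts each. Avp and Oxt, which define the magnocellular neurones of the labelled nucleus, were present in every library. Of 10 magnocellular markers 7 rose, namely Pdyn, Caprin2, Creb3l1, Rasd1, Scg2, Vgf and Nos1. Summed over the 10 markers, levels ran from 13103 to 17262 CPM in dehydrated and from 8675 to 12086 CPM in euhydrated libraries. Avp and Oxt, which hold most of these sums, did not pass themselves (edgeR adjusted p = 0.080 and 0.254), nor did Cartpt (0.969). Avp had a log2 fold change of 0.46 ± 0.15 (SE, unadjusted p by edgeR = 0.0129). DESeq2 and limma-voom each called 8 of the 10 magnocellular markers higher. Erythrocyte markers, summed over 5 genes, ran from 582 to 1413 CPM in dehydrated and from 1012 to 2026 CPM in euhydrated libraries. All 5 had negative log2 fold changes; 0 of 5 passed in edgeR, DESeq2 or limma-voom, and 1 had an unadjusted p below 0.05. Summed over 8 genes each, markers of mature oligodendrocytes ran from 9499 to 12141 CPM in dehydrated and from 9903 to 14415 CPM in euhydrated libraries (1 of 8 lower), and astrocyte markers from 4142 to 4880 CPM in dehydrated and from 4212 to 5163 CPM in euhydrated libraries (0 of 8 called in edgeR, DESeq2 or limma-voom, and 0 at an unadjusted p below 0.05). In choroid plexus, an epithelium rich in sodium pumps, 2 of 6 tested markers fell (Clic6 and Slc4a5), the sum was 12.2 to 21.7 CPM in dehydrated and 14.9 to 34.6 CPM in euhydrated libraries, and Otx2 was at 0 throughout. Of the other marker lists, 1 of 7 tested general neurone markers (Tubb3), 1 of 5 oligodendrocyte precursor markers (Cspg4) and 1 of 7 endothelial markers (Kdr) rose; DESeq2 and limma-voom each also called 1 precursor marker lower. Among 8 microglial, 7 pericyte, 5 ependymal and 5 fibroblast markers 0 passed in edgeR; at an unadjusted p below 0.05 there were 4 microglial markers lower and 2 fibroblast markers higher, and DESeq2 called 1 of each, limma-voom 1 fibroblast marker. In bulk tissue, a change in the number of cells of a type cannot be told apart from a change in RNA per cell. Where a marker level used as a covariate ended a call, this is stated beside the gene; the part of these cell types in the changes was not tested otherwise.

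The sodium pump is built from a catalytic alpha chain and a beta chain that is needed to fold it and bring it to the membrane. Of its 8 genes 6 were tested; 2 rose, and the other 4 did not pass. The 2 were 33.3% of the 6, against 7.79% of all genes tested. The median log2 fold change of the 6 was 0.061, beside -0.0058 over all genes tested.

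Atp1b3 (ENSRNOG00000011501), the beta3 chain, had 166.5, 166.6, 174.3, 174.4 and 168.8 CPM in dehydrated libraries 1 to 5, against 136.9, 132.6, 138.2, 131.1 and 135.6 CPM in euhydrated libraries 1 to 5. All dehydrated libraries were higher, with a gap wider than the range inside either group. The means were 170 ± 3.97 CPM in dehydrated and 135 ± 2.96 CPM in euhydrated libraries (SD, n = 5 each), a rise of 26.1% and a log2 fold change of 0.33 ± 0.03 (SE; adjusted p by edgeR = 1.73e-06). The call held under all 21 alternatives, with a highest adjusted p of 0.000138 with erythrocyte markers as a covariate.

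The other beta chains tested did not pass. Atp1b1, the beta1 chain, had a log2 fold change of 0.04 ± 0.03 (SE; adjusted p by edgeR = 0.379). Atp1b2, the beta2 chain that is also a glial adhesion protein, had 1018 ± 50.1 CPM in dehydrated and 1018 ± 59.7 CPM in euhydrated libraries (edgeR adjusted p = 0.995). Atp1a4, known from sperm, reached at most 8 counts in a library. Atp1b4 had 0 of 267177465 counts over the 10 libraries, which allows up to 0.0112 CPM (3 counts, counting error only).

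Expressed as shares of the beta counts, which do not correct for transcript length, Atp1b3 separated the groups. It took 6.26% to 6.75% in dehydrated and 5.15% to 5.41% in euhydrated libraries. The shares of Atp1b1 (53.0% to 56.1% in dehydrated, 53.3% to 56.7% in euhydrated libraries) and Atp1b2 (37.4% to 40.5% in dehydrated, 37.9% to 41.3% in euhydrated libraries) overlapped. These shares sum to 100% by construction and were not tested.

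**Figure D2:**
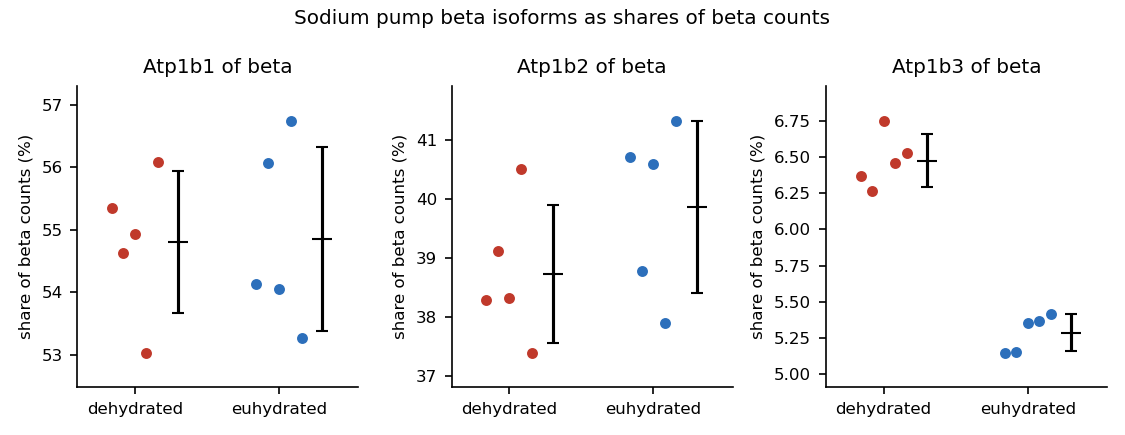
Share of the beta counts taken by each sodium pump beta isoform (percent, y axes that do not start at 0) in the 5 dehydrated (red) and 5 euhydrated (blue) libraries, with mean and SD bars. The share of Atp1b3 is higher in every dehydrated library.

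Calcium is pumped into the endoplasmic reticulum by SERCA (Atp2a), out of the cell by PMCA (Atp2b) and into the Golgi by SPCA (Atp2c). Of 8 calcium pump genes 7 were tested and 0 passed in edgeR, where 12.7% of all genes tested passed. At an unadjusted p below 0.05 there were 2 higher and 2 lower, DESeq2 called 1 higher, Atp2a2 (0.0163), and 1 lower, Atp2b3 (0.0167), and limma-voom called 1 lower, Atp2b3 (0.0459). Their median log2 fold change was -0.047. The intracellular and surface pumps differed in sign: both SERCA genes and Atp2c1 were positive, and all 4 PMCA genes were negative, also with library totals and with DESeq2 size factors. Atp2a3 turned negative with oligodendrocyte markers as a covariate (-0.04) and without dehydrated 3 (-0.05) or euhydrated 5 (-0.03), and did not pass in any of these fits.

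Atp2a2 (ENSRNOG00000001285), the SERCA2 pump, had 679.7, 679.7, 667.6, 685.3 and 676.2 CPM in dehydrated libraries, against 652.9, 660.8, 640.3, 645.7 and 636.8 CPM in euhydrated libraries. The dehydrated libraries were all higher, by a small margin. The log2 fold change was 0.07 ± 0.02 (SE; adjusted p by edgeR = 0.0881). Atp2a3, the SERCA3 pump, averaged 10.9 ± 2.37 CPM in dehydrated and 10.5 ± 1.77 CPM in euhydrated libraries (log2 fold change 0.07 ± 0.16 SE, edgeR adjusted p = 0.842). Atp2c1, which also carries manganese, averaged 182 ± 7.04 CPM in dehydrated and 171 ± 5.36 CPM in euhydrated libraries (log2 fold change 0.09 ± 0.03 SE, edgeR adjusted p = 0.0803); it passed with oligodendrocyte markers as a covariate (0.0146) and without dehydrated 1 (0.0269). Atp2c2 reached at most 11 counts in a library.

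Atp2b3 (ENSRNOG00000061304), a PMCA pump of neurones, had 129.5, 120.4, 110.4, 101.7 and 112.7 CPM in dehydrated libraries, against 125.9, 144.8, 133.6, 125.6 and 127.2 CPM in euhydrated libraries. Only dehydrated 1 lay inside the euhydrated range. The log2 fold change was -0.19 ± 0.06 (SE; adjusted p by edgeR = 0.0538). Without dehydrated 1 the adjusted p was 0.0096, and it was also below 0.05 under 6 other alternatives. The log2 fold changes of Atp2b1, Atp2b2 and Atp2b4, the other PMCA pumps, were -0.05 ± 0.04, -0.08 ± 0.04 and -0.14 ± 0.08 (SE; adjusted p by edgeR = 0.547, 0.184 and 0.345).

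Of the 25 genes of the V-ATPase and its accessory proteins 21 were tested; 4 rose, 1 fell and 16 did not pass, with a median log2 fold change of 0.044. The share called higher was 19%, against 7.79% of all genes tested, and the share called lower was 4.76%, against 4.90%. The calls lay in each part of the machine. In V0 1 of 8 tested genes rose (median log2 fold change 0.045), among accessory proteins 2 of 3 rose (median 0.12), and in V1 1 rose and 1 fell of 10 (median 0.0032). Summed over the class, levels were 5141 to 5330 CPM in dehydrated and 5001 to 5079 CPM in euhydrated libraries, which did not overlap; scaled by library totals they were 5055 to 5277 CPM in dehydrated and 5033 to 5213 CPM in euhydrated libraries and overlapped.

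Atp6v0a1 (ENSRNOG00000036814) encodes the a1 chain of V0, the isoform known from synaptic vesicles. It had 522.5, 519.0, 530.5, 537.8 and 526.9 CPM in dehydrated libraries, against 490.6, 485.7, 479.3, 479.0 and 464.7 CPM in euhydrated libraries. All dehydrated libraries were higher, with means of 527 ± 7.28 CPM in dehydrated and 480 ± 9.75 CPM in euhydrated libraries and a log2 fold change of 0.14 ± 0.03 (SE; adjusted p by edgeR = 0.00217). The call held under all 21 alternatives, with a highest adjusted p of 0.0479.

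Atp6ap2 (ENSRNOG00000003858), the prorenin receptor, is also bound to the V-ATPase. It had 260.4, 251.6, 256.6, 236.3 and 263.3 CPM in dehydrated libraries, against 224.8, 221.0, 226.2, 230.6 and 239.5 CPM in euhydrated libraries. Dehydrated 4 lay below euhydrated 5, and the other dehydrated libraries lay above all euhydrated ones. The means were 254 ± 10.6 CPM in dehydrated and 228 ± 7.11 CPM in euhydrated libraries, a log2 fold change of 0.15 ± 0.03 (SE; adjusted p by edgeR = 0.00758). The call held under all 21 alternatives, with a highest adjusted p of 0.0353.

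Atp6ap1 (ENSRNOG00000054352), also called Ac45, takes part in V0 assembly. It had 452.1, 473.0, 481.0, 483.0 and 481.9 CPM in dehydrated libraries, against 437.4, 417.2, 435.1, 441.2 and 445.9 CPM in euhydrated libraries. The groups did not overlap, with means of 474 ± 12.98 CPM in dehydrated and 435 ± 10.9 CPM in euhydrated libraries and a log2 fold change of 0.12 ± 0.03 (SE; adjusted p by edgeR = 0.00979). With erythrocyte markers as a covariate the log2 fold change was 0.11 ± 0.04 (SE) and the adjusted p was 0.0977. The third accessory gene, Atp6ap1l, spread from 10.6 to 32.7 CPM in dehydrated and from 14.7 to 22.5 CPM in euhydrated libraries, and its locus overlaps Rps23 in the GRCr8 annotation.

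Atp6v1f (ENSRNOG00000007392), a chain of the central stalk in V1, had 121.1, 132.6, 124.0, 116.8 and 116.9 CPM in dehydrated libraries, against 109.7, 118.3, 111.6, 112.5 and 105.4 CPM in euhydrated libraries. The groups overlapped because of euhydrated 2, and the log2 fold change was 0.13 ± 0.04 (SE; adjusted p by edgeR = 0.040). This call was among the least stable, since it ended with library totals (0.106), with erythrocyte (0.0502), oligodendrocyte (0.0695) or astrocyte (0.0761) markers as a covariate, and without dehydrated 1, 2 or 3 or euhydrated 1, 3, 4 or 5 (0.0614 to 0.0954).

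Atp6v1e1 (ENSRNOG00000011905), a chain of the outer stalk that ties V1 to V0, had 232.8, 233.4, 236.2, 228.5 and 230.8 CPM in dehydrated libraries, against 250.8, 248.3, 242.8, 251.6 and 237.5 CPM in euhydrated libraries. Every dehydrated library was lower, dehydrated 3 being close to euhydrated 5. The log2 fold change was -0.08 ± 0.03 (SE; adjusted p by edgeR = 0.0493). The call ended without any library other than euhydrated 5 (0.0635 to 0.130), with no filter on low counts (0.0923), and with erythrocyte (0.224) or oligodendrocyte (0.0623) markers as a covariate.

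The V1 chains that form the ATP-splitting head did not pass. Atp6v1a, the catalytic A chain, averaged 463 ± 14.4 CPM in dehydrated and 469 ± 9.42 CPM in euhydrated libraries (log2 fold change -0.02 ± 0.03 SE, edgeR adjusted p = 0.778). Atp6v1b2, the B chain of brain, averaged 455 ± 15.8 CPM in dehydrated and 442 ± 7.26 CPM in euhydrated libraries (log2 fold change 0.04 ± 0.03 SE, edgeR adjusted p = 0.357). Atp6v0c, the chain repeated in the V0 ring, averaged 860 ± 24.9 CPM in dehydrated and 809 ± 19.0 CPM in euhydrated libraries (log2 fold change 0.09 ± 0.03 SE, edgeR adjusted p = 0.0574). DESeq2 (0.0231), limma-voom (0.0447) and the fit without dehydrated 1 (0.0359) called it. The other tested V0 and V1 genes that did not pass had log2 fold changes between -0.25 ± 0.19 (SE, Atp6v1c2) and 0.18 ± 0.07 (SE, Atp6v0e1).

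The 4 V-ATPase genes that were not tested, isoforms known from kidney, bone or testis, reached at most 1 count (Atp6v1b1), 1 count (Atp6v1g3), 3 counts (Atp6v0d2) and 10 counts (Atp6v1e2) in a library. Atp12a, a proton-potassium pump of colon and kidney, reached at most 1 count.

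Lipid flippases of the P4 type keep aminophospholipids on the inner leaflet of membranes. Of 14 genes 13 were tested, and 1 rose (7.69%), 1 fell (7.69%) and 11 did not pass. Of all genes tested, 7.79% rose and 4.90% fell. The median log2 fold change of the 13 was 0.019.

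Atp8a1 (ENSRNOG00000034200), a phosphatidylserine flippase, had 112.4, 109.4, 115.9, 113.7 and 116.2 CPM in dehydrated libraries, against 124.3, 124.1, 124.3, 125.0 and 135.5 CPM in euhydrated libraries. All dehydrated libraries were lower, and euhydrated 5 stood above the other 4 of its group. The means were 114 ± 2.79 CPM in dehydrated and 127 ± 4.95 CPM in euhydrated libraries, a log2 fold change of -0.16 ± 0.03 (SE; adjusted p by edgeR = 0.00503). The call held under all 21 alternatives, euhydrated 5 left out among them, with a highest adjusted p of 0.0449. Atp8a2, its closest relative, had a log2 fold change of -0.06 ± 0.06 (SE; adjusted p by edgeR = 0.508).

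Atp10a (ENSRNOG00000056228), a flippase known in human cells to move phosphatidylcholine, had 21.2, 30.0, 23.5, 24.02 and 28.04 CPM in dehydrated libraries, against 19.99, 17.4, 19.9, 21.3 and 21.2 CPM in euhydrated libraries. Dehydrated 1 lay inside the euhydrated range and the other 4 above it. The means were 25.3 ± 3.60 CPM in dehydrated and 19.97 ± 1.56 CPM in euhydrated libraries, a log2 fold change of 0.34 ± 0.09 (SE; adjusted p by edgeR = 0.0217). The call ended without dehydrated 5 (0.0527) and with erythrocyte markers as a covariate (0.108, at a log2 fold change of 0.35 ± 0.12 SE). Atp10d, of the same subclass, averaged 13.5 ± 1.20 CPM in dehydrated and 11.7 ± 0.524 CPM in euhydrated libraries, without overlap (log2 fold change 0.21 ± 0.07 SE, edgeR adjusted p = 0.067).

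Atp9a, which acts in endosomal recycling, and Atp11a, a flippase of the plasma membrane, had log2 fold changes of 0.06 ± 0.03 and 0.06 ± 0.05 (SE; adjusted p by edgeR = 0.254 and 0.433). The other tested flippase genes ran from -0.27 ± 0.12 (SE, Atp10b) to 0.36 ± 0.32 (SE, Atp8b1), Atp8b1 at 0.591 ± 0.237 CPM in dehydrated and 0.456 ± 0.124 CPM in euhydrated libraries, and Atp8b4 reached at most 14 counts in a library. Over the class the summed level was 799 to 860 CPM in dehydrated and 804 to 841 CPM in euhydrated libraries.

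**Figure D3:**
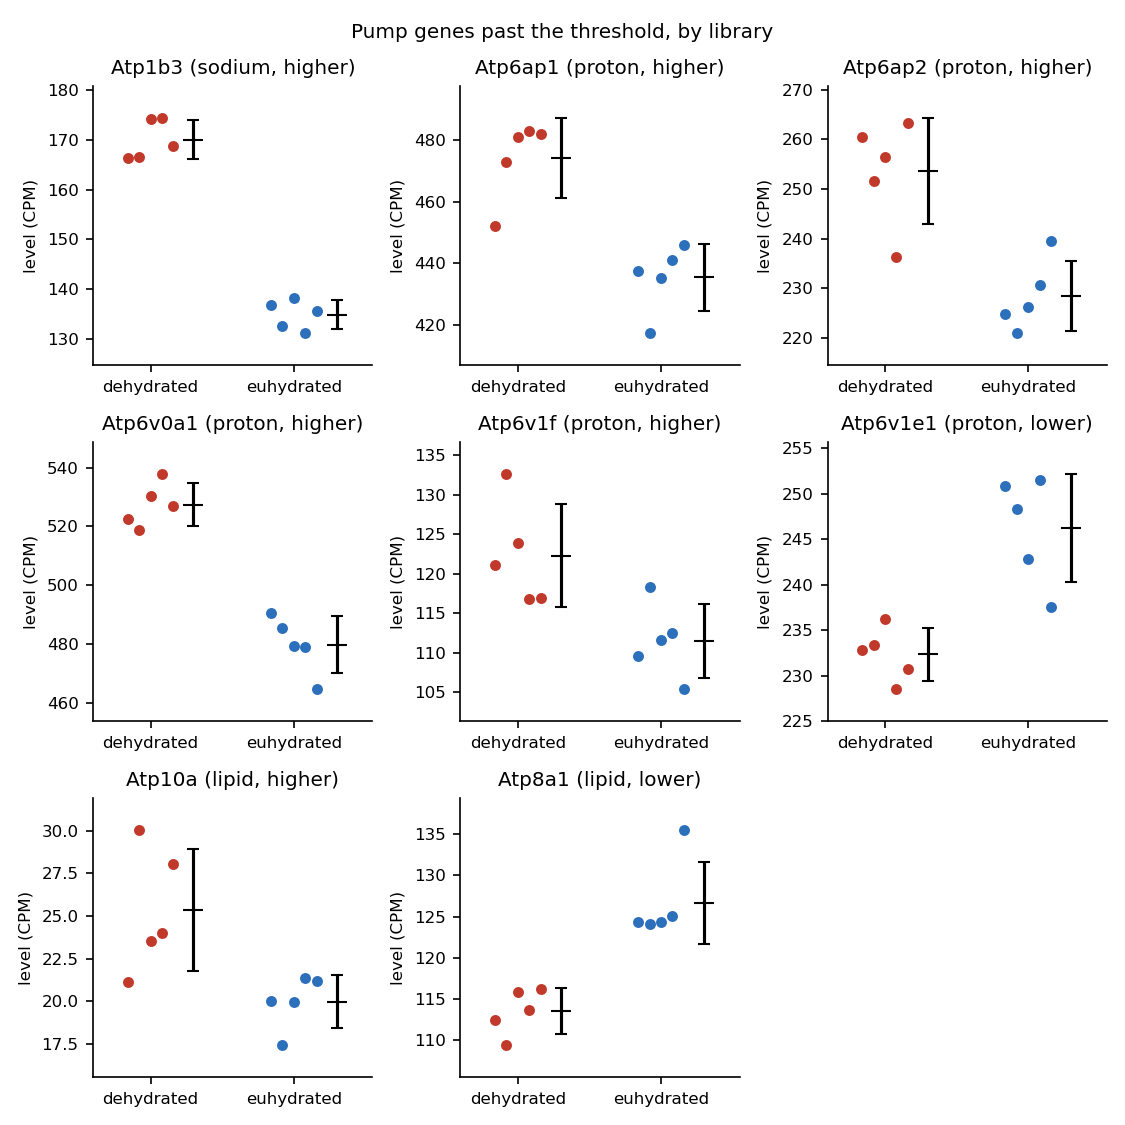
Level (CPM after TMM scaling, y axes that do not start at 0) of 8 called pump genes in each of the 5 dehydrated (red, left) and 5 euhydrated (blue, right) libraries, with mean and SD bars. The groups are separate for Atp1b3, Atp6ap1, Atp6v0a1, Atp6v1e1 and Atp8a1, and overlap for Atp6ap2, Atp6v1f and Atp10a.

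Copper pumps (2 genes) and P5 pumps (5 genes) had 0 calls in edgeR, DESeq2 and limma-voom, and 2 of the P5 genes, Atp13a3 and Atp13a5, had an unadjusted p below 0.05. The copper exporters Atp7a and Atp7b, which also load copper onto secreted enzymes, had log2 fold changes of 0.09 ± 0.08 and -0.05 ± 0.08 (SE; adjusted p by edgeR = 0.515 and 0.773). All 5 Atp13a genes were positive in the main fit. Over the alternatives Atp13a4 ran from -0.05 to 0.06, and it was negative with library totals among others. Atp13a2, a lysosomal polyamine exporter, averaged 234 ± 7.89 CPM in dehydrated and 224 ± 12.6 CPM in euhydrated libraries (edgeR adjusted p = 0.304), and Atp13a1, which clears misplaced proteins from the endoplasmic reticulum membrane, had a log2 fold change of 0.06 ± 0.05 (SE; adjusted p by edgeR = 0.418). Atp13a5 did not overlap between the groups (14.4 to 17.2 CPM in dehydrated, 11.9 to 14.1 CPM in euhydrated libraries; edgeR adjusted p = 0.0944), and Atp13a3, also tied to polyamine uptake, averaged 3.525 ± 0.466 CPM in dehydrated and 2.79 ± 0.247 CPM in euhydrated libraries (edgeR adjusted p = 0.0938; 0.0425 without dehydrated 3). The 2 members that are no pumps, Atp6v1fnb and Atp8b5p, had log2 fold changes of 0.24 ± 0.22 and -0.19 ± 0.23 (SE; adjusted p by edgeR = 0.540 and 0.658).

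The genes that work with the pumps were followed in 7 lists, with 87 genes tested. These lists were chosen with earlier results of these data known, so their shares describe the lists and do not test them. Of all genes tested, 7.79% rose and 4.90% fell, with a median log2 fold change of -0.0058. Small membrane proteins tune the sodium and SERCA pumps, and 2 of 11 rose and 2 fell (18.2% each, median log2 fold change -0.0094). Fxyd5 averaged 49.1 ± 4.95 CPM in dehydrated and 31.97 ± 4.62 CPM in euhydrated libraries (log2 fold change 0.62 ± 0.10 SE, edgeR adjusted p = 0.00188), without overlap. Fxyd7, the brain member of the family, averaged 28.3 ± 3.06 CPM in dehydrated and 34.7 ± 2.85 CPM in euhydrated libraries (log2 fold change -0.30 ± 0.07 SE, edgeR adjusted p = 0.0146; 0.0783 with the erythrocyte covariate). Nkain2, a protein that binds the beta1 chain, also fell (-0.25 ± 0.06 SE, edgeR adjusted p = 0.0138). Fxyd2, the kidney gamma chain, rose at a very low level, 0.913 ± 0.281 CPM in dehydrated and 0.435 ± 0.108 CPM in euhydrated libraries (edgeR adjusted p = 0.0195). This call ended without dehydrated 1 (0.0511) or dehydrated 2 (0.0562). DESeq2 did not call Fxyd2, which had an adjusted p under only 19 of the 21 alternatives.

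Among genes of V-ATPase assembly and regulation 4 of 13 rose (30.8%, against 7.79% of all genes tested, median log2 fold change 0.13). None was called lower, against 4.90% of all genes tested. At an unadjusted p by edgeR below 0.05 there were 6 higher and 2 lower. The lower ones were Wdr7 (-0.06 ± 0.02 SE), which did not overlap between the groups, and Rogdi (-0.10 ± 0.04 SE). Oxr1 and Ncoa7, whose TLDc domain binds the V-ATPase, both rose without overlap between the groups. Oxr1 averaged 348 ± 9.84 CPM in dehydrated and 292 ± 12.98 CPM in euhydrated libraries (log2 fold change 0.25 ± 0.03 SE, edgeR adjusted p = 0.000135), and Ncoa7 averaged 117 ± 3.03 CPM in dehydrated and 106 ± 2.30 CPM in euhydrated libraries (0.15 ± 0.03 SE, edgeR adjusted p = 0.00406). Tm9sf2 (0.19 ± 0.04 SE, edgeR adjusted p = 0.00498) and the ubiquitin ligase gene Rnf128 (0.24 ± 0.06 SE, edgeR adjusted p = 0.0121; 0.160 with the erythrocyte covariate) rose too.

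Of 23 chloride-proton exchangers and genes of acid organelles 5 rose (21.7%, against 7.79% of all genes tested). In the same list 1 fell (4.35%, against 4.90%), and the median log2 fold change was 0.059. Cd63, a tetraspanin of late endosomes, averaged 141 ± 6.06 CPM in dehydrated and 104 ± 2.29 CPM in euhydrated libraries (log2 fold change 0.44 ± 0.03 SE, edgeR adjusted p = 6.89e-07). The lysosomal proteases Ctsl (0.44 ± 0.04 SE, edgeR adjusted p = 6.59e-06) and Ctsd (0.22 ± 0.03 SE, 0.000224) and the exchanger gene Clcn5 (0.39 ± 0.06 SE, 0.00096) rose as well. Clcn4, a related exchanger named after its values were seen, fell (-0.14 ± 0.04 SE, edgeR adjusted p = 0.0221). It lost its call without dehydrated 1 or 3 or euhydrated 1 or 5 (0.0507 to 0.0611).

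In copper handling 4 of 12 genes rose (33.3%, against 7.79% of all genes tested, median log2 fold change 0.064). Pam, the copper-dependent enzyme that amidates vasopressin and oxytocin, averaged 1124 ± 52.1 CPM in dehydrated and 727 ± 43.2 CPM in euhydrated libraries (log2 fold change 0.63 ± 0.04 SE, edgeR adjusted p = 1.94e-07). The metallothionein genes Mt2A (0.88 ± 0.14 SE, edgeR adjusted p = 0.00103) and Mt1 (0.61 ± 0.17 SE, 0.0243) and Cp, for ceruloplasmin (0.32 ± 0.08 SE, 0.0161), also rose. With the erythrocyte covariate Mt1 and Cp did not pass (0.265 and 0.0861), and Mt1 lost its call without dehydrated 2, 4 or 5 or euhydrated 2 or 3 (0.0507 to 0.0615).

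Of 8 genes for flippase partners and lipid scramblases 3 rose (37.5%, against 7.79% of all genes tested, median log2 fold change 0.12). They were Vmp1 (0.26 ± 0.04 SE, edgeR adjusted p = 0.00078) and Tmem41b (0.16 ± 0.05 SE, 0.0425), both scramblases of the endoplasmic reticulum, and Ano6 (0.18 ± 0.05 SE, 0.0234), a calcium-activated scramblase. Thus all 3 were scramblases. The flippase partner gene Tmem30a did not pass (0.07 ± 0.03 SE, edgeR adjusted p = 0.155), and Tmem30b and Tmem30c were not tested. Tmem41b lost its call without any library other than euhydrated 5 (0.0574 to 0.108) and with library totals (0.102). Ano6 lost it without dehydrated 1 or 2 or euhydrated 2 or 4 (0.0517 to 0.0617) and with the erythrocyte covariate (0.0869).

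Of 12 genes for PMCA partners and sodium-calcium exchangers 1 rose (8.33%, near the 7.79% of all genes tested, median log2 fold change -0.0071). This was Bsg, for basigin, a glycoprotein that binds PMCA (0.10 ± 0.03 SE, edgeR adjusted p = 0.0365), a call lost without any library other than dehydrated 1 and euhydrated 3 (0.051 to 0.0876), with library totals (0.151) and with erythrocyte (0.0979) or astrocyte (0.0563) markers as a covariate. Of 8 vesicular transporters driven by the proton gradient 1 rose (12.5%, against 7.79% of all genes tested, median log2 fold change -0.022). Slc18a2, the vesicular monoamine transporter, averaged 7.48 ± 1.12 CPM in dehydrated and 5.21 ± 0.849 CPM in euhydrated libraries (log2 fold change 0.52 ± 0.13 SE, edgeR adjusted p = 0.0119).

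**Figure D4:**
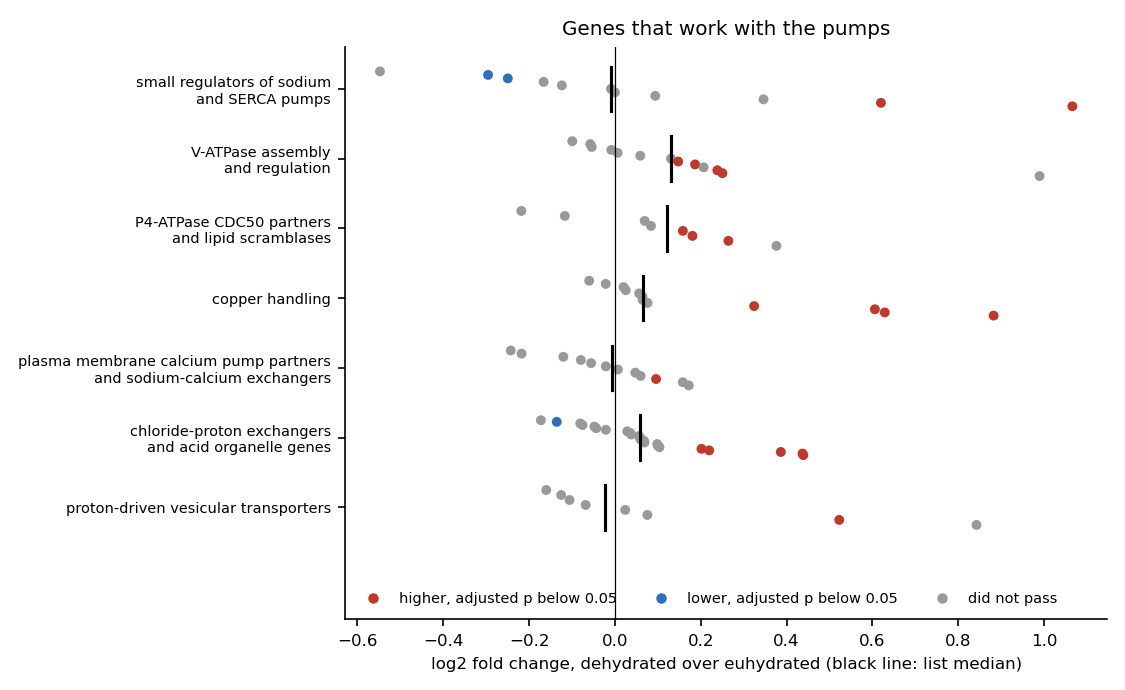
Log2 fold change (dehydrated over euhydrated, x axis) of the 87 tested genes in 7 lists of pump partners, 1 point per gene, with a black line at the median of each list; red marks genes called higher, blue called lower and grey those that did not pass. The medians run from -0.022 to 0.13.

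Promoters were found in RefSeq for 49 of the 65 members and for 8 of the 9 called ones. TGACGT, counted on either strand, was present in 4 of 49 member promoters (8.16%: Atp1b3, Atp6ap2, Atp10d and Atp6v1g3), against 7.94% of 33469 promoters. It was in 2 of the 8 called members. TCACGTGA, which reads the same on both strands, was in 2 of 49 (4.08%: Atp6v0d1 and Atp6v0e1), against 0.777% of all promoters, and in 0 of the 8 called members. Atp6v0d1, the d chain of V0 whose promoter is printed above, had a log2 fold change of 0.06 ± 0.03 (SE; adjusted p by edgeR = 0.209), and Atp6v0e1, a small V0 chain, 0.18 ± 0.07 (SE; adjusted p by edgeR = 0.0952). The runs can share the letters TGA where one follows the other, and no member promoter held both. A match describes these letters only.

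The authors' deposited table, made with DESeq2, lists 12 members with an adjusted p below 0.05, among them the 9 called here. The further 3 were Atp2b3 (0.0172 in the authors' deposited table), Atp2a2 (0.0173 in the authors' deposited table) and Atp6v0c (0.0239 in the authors' deposited table). For Atp1b3 the authors' deposited table gives a log2 fold change of 0.33 ± 0.03 (SE).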

How the data were processed

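RNA was measured in 5 dehydrated and 5 euhydrated samples. The authors deposited raw counts per Ensembl gene, with no normalisation. The submitters' processing notes name STAR, featureCounts, CASAVA, FastQC and, in version 1.28.1, DESeq2. The library kit marks strand, per the labels' protocols. Not given in the sources used here are the genome build, the annotation and whether reads were counted by strand. Symbols were read from the authors' deposited table, which also holds their log2 fold changes and p-values, per the file headers; its 10 columns of normalised values per sample were not used. Columns for euhydrated 3, 4 and 5 have numbers on which the titles and descriptions differ, so only their group was used, and libraries are named by column number.

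Genes were filtered with filterByExpr (15311 of 32402 kept), scaled by TMM and tested with edgeR 4.0.16 (glmQLFit, robust, and glmQLFTest; dehydrated over euhydrated, no covariate) in R 4.3.3. Adjusted p-values are Benjamini-Hochberg values over all 15311 genes (threshold 0.05), and an SE is the log2 fold change divided by the root of the F statistic. Each total of 24268398 to 28491926 counts sets the depth. Counts of 20 within-group library pairs were compared over genes with 20 or more counts; chi-square per degree of freedom was 4.86 to 12.1, above sampling noise in every pair, and none was treated as a duplicate.

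Alternatives were DESeq2 size factors, library totals, Avp and Oxt left out, 2 other filters (at least 1 CPM in at least 5 libraries, or none), DESeq2 1.42.0, limma-voom (limma 3.58.1), a replicate block, mean log2 CPM (prior count 2) of erythrocyte, oligodendrocyte or astrocyte markers as a covariate, a threshold of 0.01, and the omission of 1 library at a time. The edgeR script was tested on simulated data. The members, the lists of partners and markers and the promoter motifs were chosen with earlier results of these data known. Text names each sodium and calcium pump isoform tested, each called member, the 2 members of each class with the highest mean CPM, and in each partner list up to 4 called genes with the largest changes. Some members that these rules select are counted but not reported here. In the RefSeq annotation of GRCr8, 28 of 55 tested members that matched it overlap another locus, and 0 of the 9 called ones do. No transcript lengths were used, so levels are not compared between genes.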

Additional observations from a re-analysis of the deposited data

Results flagged for a closer look

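In each group of 5 libraries, the highest or lowest library was set against the other 4 by Dixon's test, over 112 groups of pump genes. Chance flags about 1 in 20 groups, and 2 were found. Atp8a1 stood at 135 CPM in euhydrated 5, while the other 4 euhydrated libraries held 124 to 125 CPM. Atp13a5 stood at 11.9 CPM in euhydrated 5, while the other 4 held 13.6 to 14.1 CPM. Both concern the same library, and the cause was not tested.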

How the results depend on the processing

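Of the 9 called members, Atp1b3, Atp6ap2, Atp6v0a1 and Atp8a1 kept their calls under all 21 alternatives at the threshold of 0.05, and the other 5 changed in at least 1; 0 changed direction with a call. Of the 47 members that did not pass, 10 passed under at least 1 alternative. The count of higher members, 7, became 3 with the erythrocyte covariate, 6 with library totals, 9 with DESeq2 and 8 with limma-voom, and 6 to 8 without 1 library. The count of lower members, 2, became 4 with library totals, 1 with no filter on low counts, 1 with the erythrocyte covariate, 1 at a threshold of 0.01 (5 higher) and 3 with DESeq2, and ran from 1 to 3 without 1 library; where 1 remained, Atp6v1e1 was the call lost. Atp2b3 also joined the lower calls with limma-voom (0.0459), at least 1 CPM in at least 5 libraries (0.0498) and the oligodendrocyte covariate (0.00901). The cause of these shifts was not tested. The erythrocyte level was itself lower in dehydrated libraries (-0.74 on the log2 scale), so the erythrocyte covariate carries part of the group difference. Same-numbered libraries of the groups showed little shared deviation (correlations -0.0696 to 0.203, and 1 of 5 was closest to its own number). This check gave no sign that the numbers pair the samples. It cannot exclude a pairing, since titles and descriptions differ on the numbers of euhydrated 3, 4 and 5. With a replicate block by column number 7 members were higher and 3 lower: Atp2b3 (0.0229) and Atp2b4 (0.0166) passed and Atp6v1e1 (0.0688) did not; among the partners Cp (0.0682) and Bsg (0.0527) lost their calls. Depth and 5 libraries a group limit what small changes can be seen, so a member that did not pass is not shown to be the same in both groups.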
